A study of Fundulus heteroclitus with 8 samples.

Results

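The proteins of the large (60S) subunit of the cytosolic ribosome were followed through their transcripts in the testis of adult male mummichog (Fundulus heteroclitus, an estuarine killifish). Members were all probes of the array design whose name holds "60S ribosomal protein", "60S acidic ribosomal" or "ribosomal protein L" with a number, without the mitochondrial ones, and each product name was represented by its brightest probe. This gave 54 product names from 106 probes, out of 3413 product names and 7157 probes in all. The names hold 50 distinct designations, because L5, L11, L15 and L21 each occur with and without the 60S prefix, and they include the paralog names L36a-like and L7-like 1. L4 and L4A, and L5 and L5A, were kept apart as named, and whether each pair is 1 gene in this fish is not settled by the names. A fusion of ubiquitin with L40 is named without any of the 3 phrases and was therefore not a member.

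Exposed males (DHT50, 4 fish) had 5α-dihydrotestosterone added to their water at 50 µg/L over 21 days, control males (4 fish) had 0 µg/L, and each fish was run on 1 single-colour array. This hormone (DHT) is a strong androgen that cannot be aromatised. Per the labels the replicates are biological and come from individuals, with no strain, origin or testis stage given. Arrays of the lower dose named in the labels were not analysed here.

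A ribosome joins a small subunit, which reads the message, to a large one, which forms the peptide bond and lets the new protein out through a tunnel. The large subunit is assembled in the nucleolus from ribosomal RNA and one copy of most of its proteins, so cells usually make these proteins in step. In vertebrates their messages share a start sequence through which growth signalling regulates their translation. In the testis, dividing spermatogonia and growing spermatocytes need many ribosomes, while late spermatids shed most of theirs.

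A level is the log2 processed signal of a probe minus the 75th percentile of its array, so 0 means as bright as that percentile, and levels of different probes do not rank transcripts by abundance. The brightness of an array, its 75th percentile of log2 signal, was 10.95, 7.97, 9.13 and 9.50 on DHT50 1 to 4 and 11.21, 9.99, 10.09 and 10.03 on control 1 to 4. DHT50 1 and control 1 were the brightest arrays and DHT50 2 the dimmest. All arrays shared 1 slide, with DHT50 1, DHT50 2, DHT50 3 and control 1 in slide row 1 and DHT50 4 with the other controls in row 2. Between 4742 (DHT50 2) and 6227 (control 4) probes were well above background. The germ cell marker DEAD-box protein 4 was well above background on 8 of 8 arrays, and its levels are given with the other markers.

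Of the 54 names, 52 were well above background on at least 4 arrays and were tested, and 51 were so on all 8. 60S ribosomal protein L30 was well above background on 0 DHT50 arrays and 1 control array, and the name ribosomal protein L11 without prefix on 0 arrays of either group. The name ribosomal protein L21 without prefix was well above background on 2 DHT50 and 3 control arrays and is the dimmest tested member. Mean levels of the 54 chosen probes ranged from -7.19 to 7.19, and the paired spots of a probe differed by a median of 0.0697 on the log2 scale.

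Most large subunit transcripts lay somewhat lower in DHT50 testis, and none passed the test. The log2 change of DHT50 over control was below 0 in 33 of 52 members and above 0 in 19, with a median of -0.28, while 49.9% of all 3051 tested product names were below 0, with a median of 0.0013. limma called 0 of 52 members and 0% of the tested names at adjusted p under 0.05. At an unadjusted p under 0.05 it found 0 members, against 4.29% of the tested names. On the chosen probes the groups did not overlap in 1 member, L29, which was lower in DHT50, against 0.951% of names lower and 1.21% higher. In whole tissue, a smaller share of the cells that hold these transcripts and less of them per cell cannot be told apart.

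**Figure D1:**
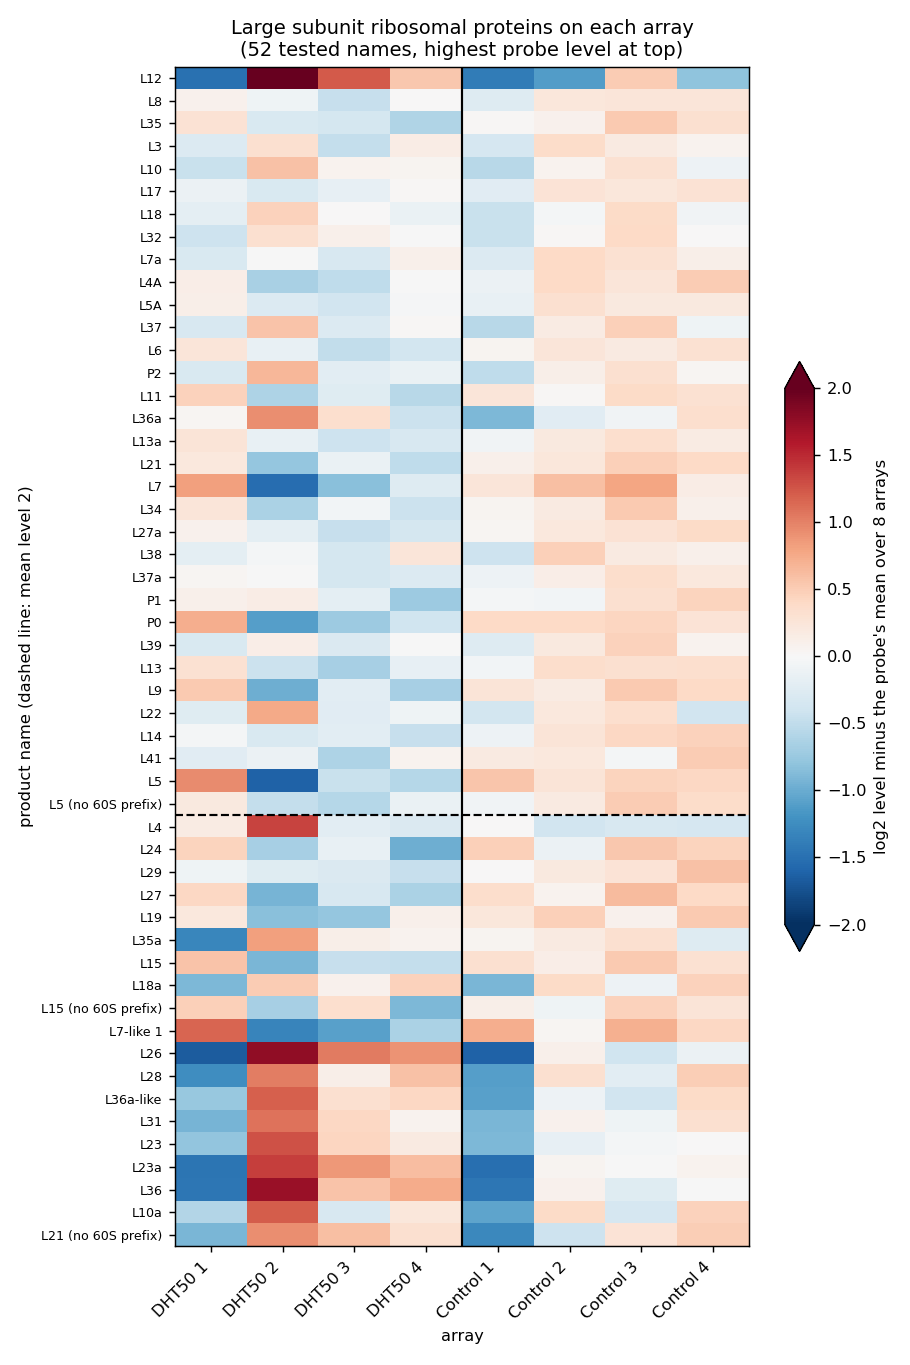
Level of each of the 52 tested large subunit names on each array (columns: DHT50 1 to 4, then control 1 to 4) as a log2 difference from the probe's mean over the 8 arrays, red above and blue below it, ordered by the probe's mean level. Above the dashed line at level 2, controls 2 to 4 are mostly red and DHT50 2 to 4 mostly blue, while many rows below it are blue on DHT50 1 and control 1 and red on DHT50 2.

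The transcripts did not share 1 direction. Changes ran from -0.94 in L7-like 1 to 1.40 in L12. The median SD within a group was 0.413 for members, against 0.615 for all tested names, so the typical member spread less within a group than the typical name. This comparison was not matched for level, since 33 of 52 members had a level of 2 or more, against 351 of 3051 names. The median SE of a member's change was 0.351, which is larger in size than their median change.

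**Figure D2:**
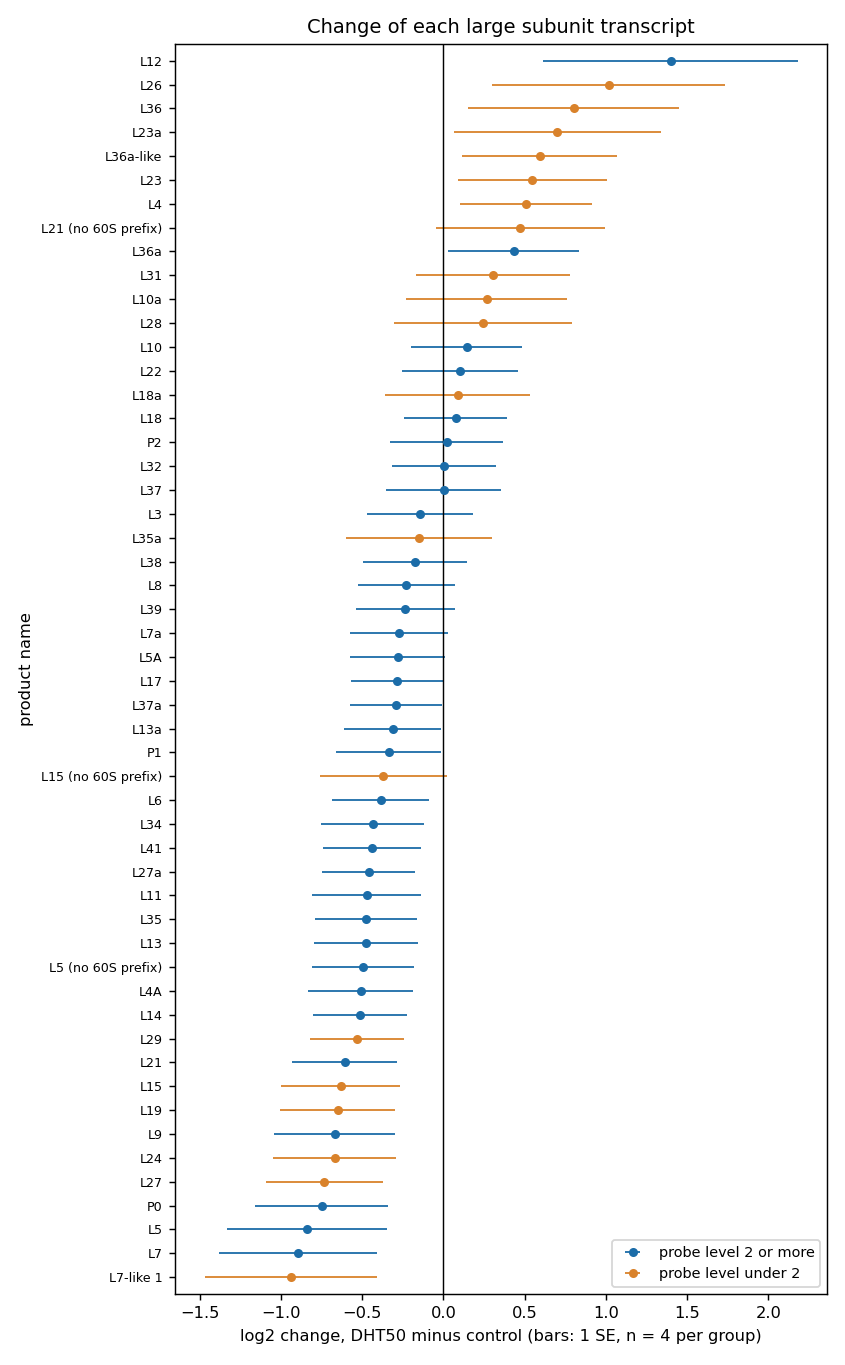
Log2 change (DHT50 minus control, bars 1 SE, n = 4 per group) of each of the 52 tested names, in blue where the chosen probe averages a level of 2 or more and in orange where it is under 2. The 33 names below 0 run down to -0.94, and the 19 above 0 reach 1.40 in L12, with wide bars at both ends.

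The stalk that recruits elongation factors to the ribosome is built from P0, P1 and P2 on a base that includes L12. Its 4 members were split, with 2 lower, 2 higher and a median change of -0.16. L12 had levels of 5.70, 9.70, 8.42 and 7.73 on DHT50 1 to 4 and of 5.79, 6.08, 7.70 and 6.39 on control 1 to 4. Thus 3 of 4 DHT50 arrays were above every control and DHT50 1 was below all of them. The means were 7.89 ± 1.67 in DHT50 and 6.49 ± 0.85 in control (SD, n = 4 each), a change of 1.40 ± 0.78 (SE), the highest among members, with adjusted p = 0.685 from limma. With quantile normalization the change of L12 was 0.75, without DHT50 2 it was 0.80, and with array brightness as a covariate it was 0.24. The probe that represents L12 is named after a predicted rat protein, and a dimmer second probe of L12 had a change of 0.55.

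P0, which anchors P1 and P2, showed the reverse picture. Its levels were 5.00, 3.17, 3.55 and 3.87 on DHT50 1 to 4, against 4.67, 4.67, 4.71 and 4.55 on control 1 to 4. The controls lay almost on 1 value (SD 0.07), while the DHT50 arrays spread widely (SD 0.79), 3 below every control and DHT50 1 above all of them. The change was -0.75 ± 0.41 (adjusted p = 0.685, limma), and a second probe gave -0.71. With array brightness as a covariate the change of P0 was -0.26. For P1 the levels were 4.38, 4.43, 4.09 and 3.57 on DHT50 1 to 4 and 4.25, 4.24, 4.60 and 4.73 on control 1 to 4, a change of -0.34 ± 0.32 (adjusted p = 0.706). P2 stood at 5.01, 5.98, 5.10 and 5.18 on DHT50 1 to 4 and at 4.80, 5.42, 5.63 and 5.34 on control 1 to 4, a change of 0.02 ± 0.35 (adjusted p = 0.984), which was -0.084 in the authors' deposited table. The groups overlapped in both P1 and P2.

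L5 and L11 enter the subunit bound to the 5S ribosomal RNA, and in mammals the same complex, when left unassembled, binds the p53 regulator Mdm2. All 4 tested names of these proteins had a change below 0 on the chosen probe, with a median of -0.48. All but L11 are names of L5 or L5A, and whether these are separate genes is not settled. L5 stood at 4.30, 1.73, 2.90 and 2.77 on DHT50 1 to 4 and at 3.91, 3.61, 3.79 and 3.77 on control 1 to 4. Its change of -0.84 ± 0.49 (adjusted p = 0.685, limma) carried a spread of 1.05 among DHT50 arrays and 0.12 among controls (SD, n = 4 each), since DHT50 1 was above every control and the other DHT50 arrays below all of them. Without DHT50 2 the change of L5 was -0.44, and with array brightness as a covariate it was -0.17. The name without prefix had a change of -0.49 and L5A one of -0.28, each on a probe of its own. L11 was at 5.41, 4.34, 4.72 and 4.40 on DHT50 1 to 4 and at 5.19, 4.98, 5.33 and 5.26 on control 1 to 4, with a change of -0.47 ± 0.33. Once more DHT50 1 topped all 8 arrays while DHT50 2, DHT50 3 and DHT50 4 lay below every control. A dimmer second probe of L11, of mean level -4.49, had a change of 0.23.

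L3, L8 and L10 reach towards the peptidyl transferase centre, where the bond is made. On their chosen probes the changes were small beside their errors. The change was -0.23 ± 0.30 for L8, -0.14 ± 0.32 for L3 and 0.14 ± 0.34 for L10. L8 averaged 6.93 ± 0.24 on DHT50 arrays and 7.16 ± 0.25 on control arrays (SD, n = 4 each). The groups overlapped in L3, L8 and L10 on these probes. The 3 tested probes of L3 ran from -0.69 to -0.14, and the 6 of L10 from -0.45 to 0.65. The L3 probe at -0.69 ± 0.29, of mean level 2.46, had every DHT50 array below every control (unadjusted p = 0.041, adjusted p = 0.685, limma). Of all 5989 tested probes, 57 were placed likewise, and 85 were lower at an unadjusted p under 0.05.

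Proteins of the exit tunnel and its rim were evenly divided, 5 lower and 5 higher of 10 names, with a median change of -0.07. L26, which lies at the tunnel exit, had levels of -1.83, 1.62, 0.88 and 0.73 on DHT50 1 to 4 and of -1.77, -0.06, -0.56 and -0.28 on control 1 to 4. DHT50 1 and control 1, the brightest arrays, were lowest for L26, and the other DHT50 arrays were above every control. Its change was 1.02 ± 0.72 (adjusted p = 0.685, limma). L23a, the docking site of signal recognition particle at the rim, behaved alike, at -2.25, 0.59, 0.07 and -0.17 on DHT50 1 to 4 and -2.30, -0.73, -0.80 and -0.72 on control 1 to 4. Here the change was 0.70 ± 0.64 (adjusted p = 0.705). With array brightness as a covariate the changes were -0.10 for L26 and -0.27 for L23a.

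L4 extends a loop into the tunnel together with L17. L4 was at 2.03, 3.21, 1.64 and 1.57 on DHT50 1 to 4 and at 1.87, 1.48, 1.54 and 1.52 on control 1 to 4. Its change of 0.51 ± 0.41 (adjusted p = 0.685) rested on DHT50 2, without which it was 0.14. The separate name L4A had a change of -0.51 ± 0.32, the opposite sign of L4. L17 had a change of -0.28 and L39, a very small protein of the tunnel wall, one of -0.23. For L35, at the tunnel exit, the change was -0.48 ± 0.32, with levels of 6.73, 6.13, 6.09 and 5.84 on DHT50 1 to 4 and 6.46, 6.52, 6.95 and 6.76 on control 1 to 4. DHT50 2 to 4 were below every control for L35 and DHT50 1 was not.

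L19, L23, L24 and L41 lie on the face that meets the small subunit. 3 of these 4 names were lower in DHT50, with a median change of -0.55. L19, which belongs to both the tunnel rim and a bridge between the subunits, was at 0.79, -0.27, -0.21 and 0.67 on DHT50 1 to 4 and at 0.80, 1.05, 0.65 and 1.09 on control 1 to 4. The change was -0.65 ± 0.35 (adjusted p = 0.685, limma). L24, another bridge protein, had levels of 2.18, 1.06, 1.58 and 0.75 on DHT50 1 to 4, against 2.21, 1.61, 2.27 and 2.17 on control 1 to 4, with a change of -0.67 ± 0.38. In both proteins DHT50 1 lay inside the control range. L41, among the shortest proteins known, had a change of -0.44 ± 0.30 on its chosen probe. L23, where the initiation factor that keeps the subunits apart binds, was at -1.54, 0.52, -0.32 and -0.58 on DHT50 1 to 4 and at -1.65, -0.93, -0.79 and -0.75 on control 1 to 4. That made a change of 0.55 ± 0.46 (adjusted p = 0.690), which was -0.10 with brightness as a covariate. L10a, of the mobile L1 stalk that guides spent transfer RNA out, had a change of 0.27 ± 0.50.

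Among the proteins with no such role assigned here, 18 of 27 tested names were lower, with a median change of -0.31. L29, a small protein of the subunit surface, was the only member whose groups did not overlap on the chosen probe. Dimmer probes of L3 (mean level 2.46) and L14 (2.09) also had every DHT50 array below every control, with changes of -0.69 and -0.54. They were found among 96 tested member probes. Of all 5989 tested probes, 57 lay so and 76 had every DHT50 array above every control. The chosen probe of L29 stood at 1.51, 1.35, 1.31 and 1.14 on DHT50 1 to 4, against 1.60, 1.78, 1.87 and 2.19 on control 1 to 4. Every DHT50 array was below every control, by 0.089 at the closest pair, DHT50 1 and control 1. The change was -0.53 ± 0.29 (adjusted p = 0.685, limma), and a second probe of L29, of mean level -4.90, had a change of 0.24.

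L27 had the smallest unadjusted p of all members, 0.0698. Its levels were 1.52, 0.18, 0.80 and 0.48 on DHT50 1 to 4 and 1.47, 1.19, 1.75 and 1.52 on control 1 to 4, with a change of -0.74 ± 0.36 (adjusted p = 0.685). L21 was at 5.07, 4.08, 4.71 and 4.34 on DHT50 1 to 4 and at 4.96, 5.07, 5.34 and 5.26 on control 1 to 4, with a change of -0.61 ± 0.32. In L27 and L21 alike, 3 DHT50 arrays were below every control and DHT50 1 was among the controls. L9, close to the site where elongation factors act, was at 4.35, 2.86, 3.63 and 3.17 on DHT50 1 to 4 and at 4.10, 4.00, 4.36 and 4.23 on control 1 to 4. Its change was -0.67 ± 0.37, and its 3 tested probes lay between -0.70 and -0.67.

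L7 and its paralog name L7-like 1 had the lowest changes of the 52 members. L7 was at 5.47, 3.12, 3.80 and 4.38 on DHT50 1 to 4 and at 4.88, 5.25, 5.43 and 4.79 on control 1 to 4, a change of -0.90 ± 0.49 (adjusted p = 0.685). L7-like 1 was at 1.23, -1.25, -1.01 and -0.56 on DHT50 1 to 4 and at 0.80, 0.11, 0.78 and 0.48 on control 1 to 4, a change of -0.94 ± 0.53. DHT50 1 was the highest of all 8 arrays for both, and the other DHT50 arrays were below every control. With brightness as a covariate these changes were -0.32 and -0.22.

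L36, L36a and L36a-like had changes above 0. L36 was at -2.73, 0.44, -0.72 and -0.55 on DHT50 1 to 4 and at -2.74, -1.21, -1.53 and -1.29 on control 1 to 4, a change of 0.80 ± 0.65 (adjusted p = 0.685). L36a-like, a name given in mammals to a paralog of L36a, was at -1.19, 0.75, -0.11 and -0.02 on DHT50 1 to 4 and at -1.52, -0.54, -0.83 and -0.06 on control 1 to 4, a change of 0.59 ± 0.48 (adjusted p = 0.685). For L36a the levels were 4.95, 5.85, 5.26 and 4.49 on DHT50 1 to 4 and 4.02, 4.70, 4.85 and 5.25 on control 1 to 4, a change of 0.43 ± 0.40 (adjusted p = 0.705). DHT50 2 was the highest array for all 3 names. The changes of L36 and L36a-like were -0.21 and -0.055 with brightness as a covariate, and that of L36a was -0.44 in slide row 2 alone, where DHT50 4 is the lone exposed sample. Of other well-known members, L13a, which in mammals also silences inflammatory messages, had a change of -0.31 ± 0.30, L6 of -0.39 ± 0.30, L14 of -0.51 ± 0.29 and L15 of -0.63 ± 0.37.

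**Figure D3:**
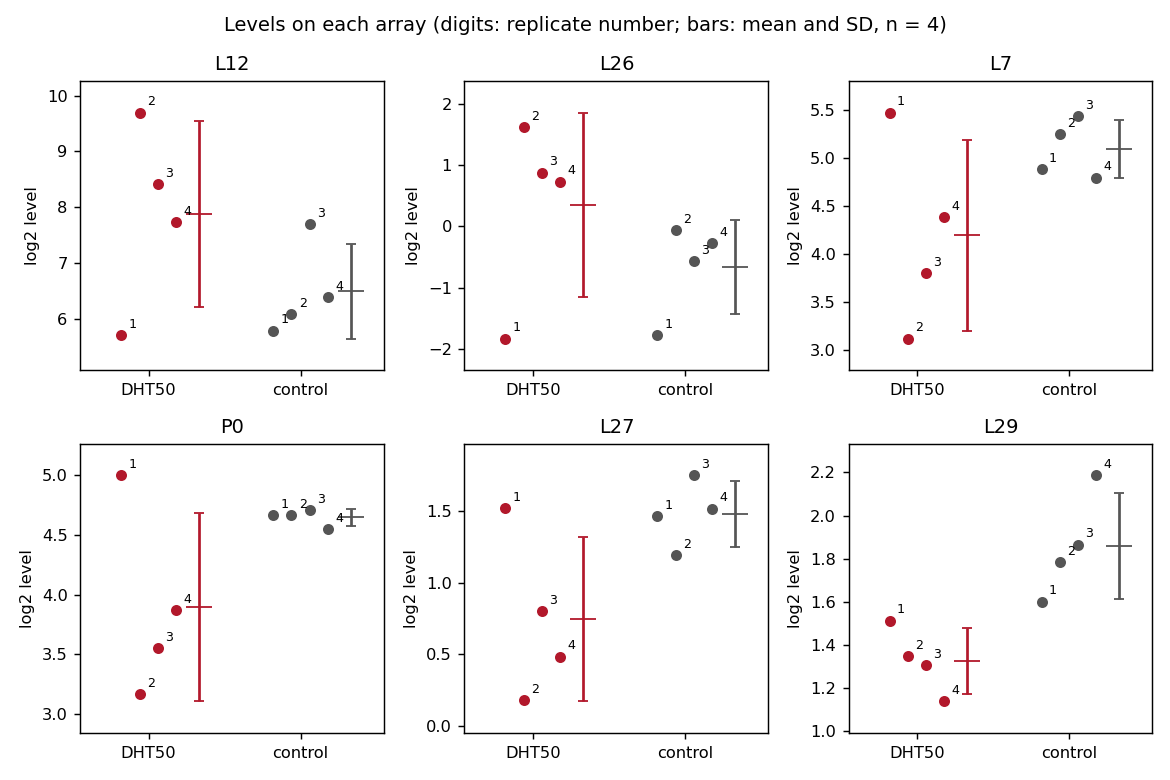
Log2 level on each array (digits give the replicate number) of L12, L26, L7, P0, L27 and L29 in DHT50 (red, left) and control (grey, right), with the mean and SD (n = 4). DHT50 1 lies apart from the other DHT50 arrays for L12, L26, L7, P0 and L27, and the groups do not overlap for L29.

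The array that stood aside in these values was mostly DHT50 1. In 19 of 52 members exactly 3 of 4 DHT50 arrays lay below every control, and in 18 of the 19 the remaining array was DHT50 1. Exactly 3 of 4 DHT50 arrays below every control, whichever array remained, was found in 16.3% of all tested names. How often DHT50 1 was the remaining array among those names was not counted. The mirror image, 3 DHT50 arrays above every control, was found in 5 members (L12, L23, L23a, L26 and L36), again with DHT50 1 as the remaining array. It was found in 15.6% of all names, whichever array remained. Without DHT50 1, 13 members were lower and 5 higher at an unadjusted p under 0.05, against 12.3% of all names lower and 12.9% higher, and 0 were called after adjustment. Among them the change was -1.48 for L7-like 1, -1.30 for L5, -1.12 for P0 and 2.13 for L12, each with adjusted p = 0.174 from limma. No label sets DHT50 1 apart from the other exposed males, and its marker values are given below.

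Without DHT50 1 and control 1 together, a choice made after seeing the data, 35 of 52 members had a change below 0, against 50.4% of all names. Of these members 18 were lower and 4 higher at an unadjusted p under 0.05, against 11.2% and 8.78% of names, with 0 called. The median change of members was then -0.43. With control 1 alone left out 42 of 52 members were below 0, against 56.1% of names. With DHT50 2 alone left out it was 43 of 52, against 54.5%. In both cases 0 members reached an unadjusted p under 0.05, which 155 and 195 of all 5989 tested probes did. With so few probes passing, 0 of 52 does not set the members apart. When limma weighted the arrays by their quality, 39 of 52 members were below 0, against 52.6% of names, and 20 were lower and 2 higher at an unadjusted p under 0.05, against 13.7% and 8.92% of names, again with 0 called.

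Direction went with how bright the member's probe was. Of the 33 members whose probe averaged a level of 2 or more, 25 were lower, with a median change of -0.31, against 62.7% lower and a median of -0.16 among all 351 names of that level. Of the 19 dimmer members 8 were lower, with a median of 0.24, against 48.3% and 0.02 among the 2700 dimmer names. Small subunit names were divided alike. At a level of 2 or more 17 of 21 were lower (median -0.35), and under 2 it was 6 of 15 (median 0.08). The level of 2 was chosen after seeing the data. The dimmer members stood apart on the arrays of extreme brightness. Their median deviation from the probe's own mean was -0.75, 0.93, 0.11 and 0.10 on DHT50 1 to 4 and -0.90, 0.08, -0.01 and 0.38 on control 1 to 4, lowest on the brightest arrays (DHT50 1 and control 1) and highest on the dimmest (DHT50 2). The brighter members had medians of 0.08, -0.15, -0.33 and -0.14 on DHT50 1 to 4 and of -0.10, 0.21, 0.34 and 0.24 on control 1 to 4. For these, controls 2 to 4 were above all DHT50 arrays and control 1 was within their range.

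With array brightness in the fit, 49 of 52 members had a change below 0, all but L4, L12 and L36a, against 67.2% of all names, and 0 members passed an unadjusted p under 0.05, against 0.918% of names lower and 1.8% higher. Within slide row 1, where control 1 is the lone control, 26 of 52 members were lower with a median change of 0.016, against 43.2% of names, and 0 reached an unadjusted p under 0.05, against 5.18% of names lower and 1.87% higher. Within row 2, where DHT50 4 is the lone exposed sample, 41 of 52 were lower with a median of -0.26, against 50.1% of names, and 7 were lower and 1 higher at an unadjusted p under 0.05, against 2.92% and 2.03%. A lone sample is assumed to vary like the other group. With the row as a block, 31 of 52 were lower, against 45.4% of names, and the median was -0.12.

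**Figure D4:**
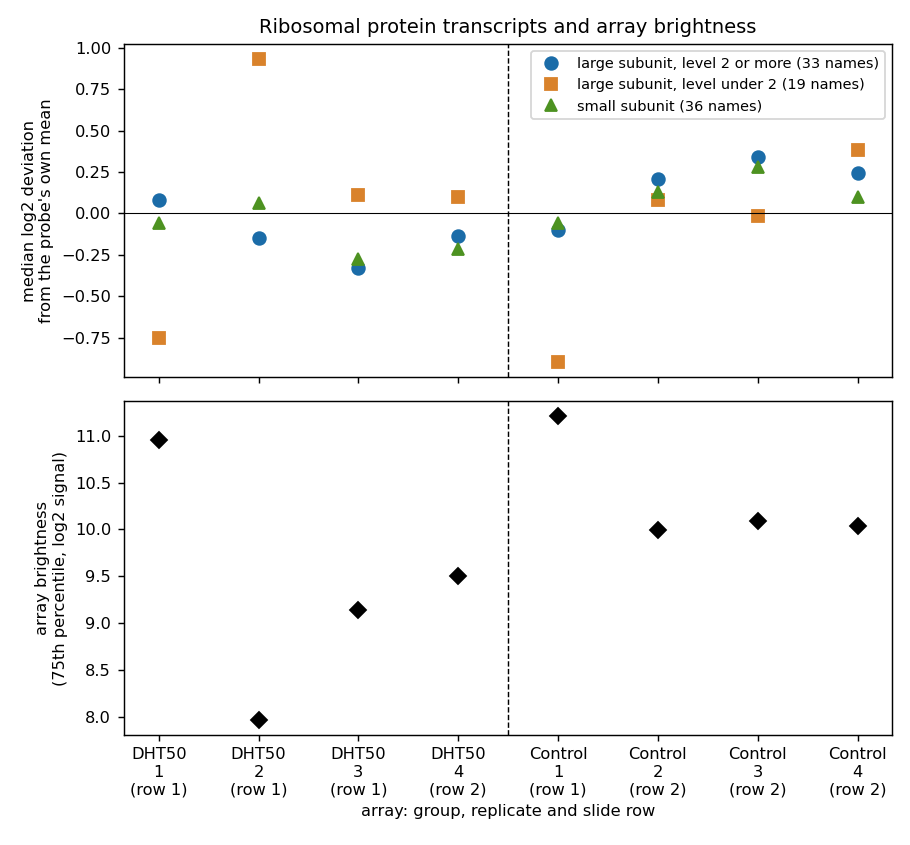
Upper panel, median log2 deviation from each probe's own mean on every array for large subunit members of level 2 or more (circles, 33 names), those under 2 (squares, 19 names) and small subunit proteins (triangles, 36 names); lower panel, the array's 75th percentile of log2 signal, DHT50 left and control right of the dashed line. The squares are highest on DHT50 2, the dimmest array (0.93), and lowest on DHT50 1 (-0.75) and control 1 (-0.90), the brightest, while the other arrays do not follow the order of brightness.

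Over the 8 arrays, members varied together more than names did in general. The median Pearson r between pairs of members was 0.314, and 0.0310 between pairs of all tested names. Among the 33 members of level 2 or more it was 0.479, among the 19 dimmer ones 0.227, and between a brighter and a dimmer member 0.0567. All these pairs share the same 8 arrays, their brightness and their grouping. The comparison with all names was not matched for level, since 33 of 52 members had a level of 2 or more, against 351 of 3051 names. Pairs of small subunit names were not examined, so whether this is particular to the large subunit was not tested. The names outside the subunit most like the per-array median of its members were smooth muscle cell associated protein 5 (r = 0.959 over 8 arrays), Elongation factor 1-delta (0.926), mitochondrial ribosomal protein L33 isoform a (0.917), NADH-ubiquinone oxidoreductase 15 kDa subunit (0.898) and 40S ribosomal protein S28 (0.897). They were picked for their high r from the 3051 tested names, members left out, and are given as a description only.

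Several probes of 1 name show how far a value depends on the probe. Of the 23 members with more than 1 tested probe, 9 had every probe below 0, 2 had every probe above 0 (L12 and L36a) and 12 had probes on both sides. The median distance between the lowest and the highest probe of a name was 0.549, about as large as the changes themselves. L8 spanned -0.94 to 0.87 over 5 probes, L22 -0.68 to 0.90 over 5 and L41 -0.44 to 0.86 over 2. The L8 probe at 0.87 averaged a level of -5.11, and the L41 probe at 0.86 a level of -2.43. The probes of P0, L9, L14, L21 and L24 lay close together, the widest span among these 5 names being 0.17 in L21. The probes of a name may belong to different assembled transcripts, so a gene and a near-identical copy cannot be told apart here.

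**Figure D5:**
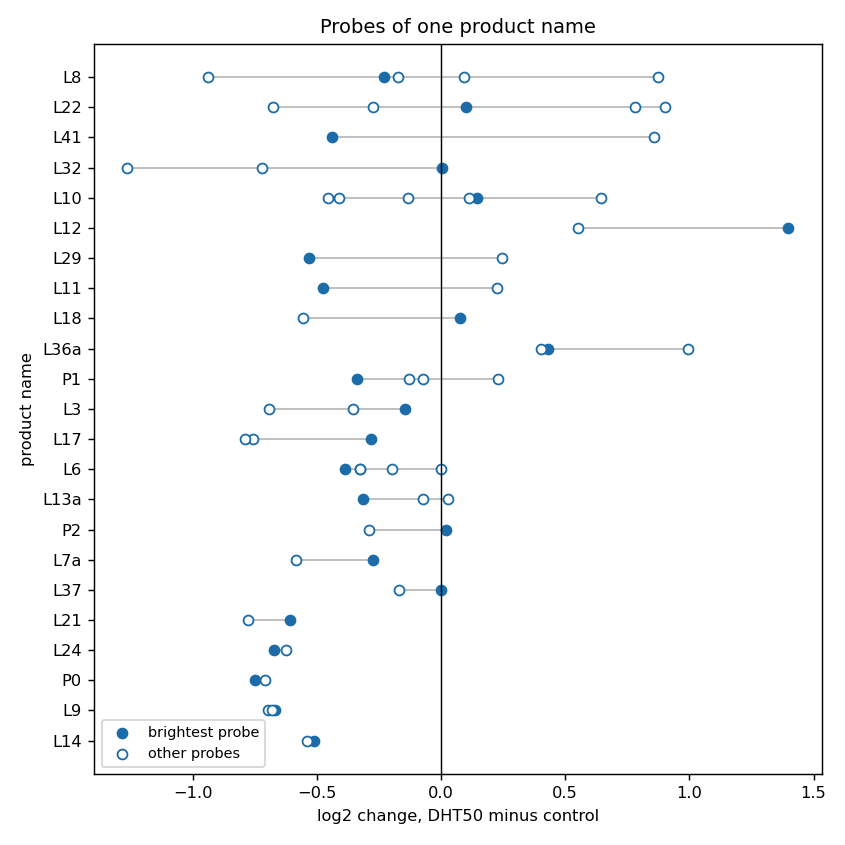
Log2 change (DHT50 minus control) of every tested probe of the 23 names with more than 1, the brightest filled, ordered by the distance between a name's lowest and highest probe. L8 and L22 span 0 widely (-0.94 to 0.87 and -0.68 to 0.90), while the probes of P0, L9, L14, L21 and L24 lie close together below 0.

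The rest of the translation machinery gave similar counts. Beside 33 of 52 large subunit names with a median change of -0.28, 23 of 36 tested small subunit names were lower, with a median of -0.24. Per array, the large subunit median minus the small subunit median was 0.05, -0.13, 0.04 and 0.11 on DHT50 1 to 4 and -0.05, 0.05, 0.04 and 0.20 on control 1 to 4, with overlapping groups. S20 and S24 were the 2 small subunit names whose groups did not overlap, both lower in DHT50, against 0.951% of all names. S19 went the other way, with a change of 1.30 ± 0.58, and was the only small subunit name at an unadjusted p under 0.05 (adjusted p = 0.685, limma). Elongation factors, which the stalk recruits, were lower in 4 of 5 names with a median of -0.29, lowest in elongation factor 1-beta (-0.75 ± 0.45). Factors of ribosome assembly were lower in 11 of 17 names with a median of -0.15, the lowest being Fibrillarin, the methyltransferase of ribosomal RNA, at -1.27 ± 0.61. Of 5 names for poly(A)-binding proteins, a protein that interacts with them and the TOR kinase, 3 were lower, with a median of -0.46. The lower ones were Polyadenylate-binding protein 4 (-0.46) and both names of the TOR kinase (-0.57 and -0.46). Polyadenylate-binding protein 1 (0.36) and Polyadenylate-binding protein-interacting protein 1 (0.56) were higher. None of the 3 further lists had a member at an unadjusted p under 0.05 or a member whose groups did not overlap (0 of each in every list). Among all tested names the shares were 4.29% at that p, and 0.951% lower and 1.21% higher without overlap. In lists of 5, 17 and 5 tested names, counts of 0 do not set them apart.

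Markers of other cells differed between arrays beside these results. DEAD-box protein 4, made in germ cells, was at -0.02, -2.08, -2.37 and -1.59 on DHT50 1 to 4 and at 0.03, -0.82, -1.17 and -0.24 on control 1 to 4. Its arrangement was that of many members, with 3 DHT50 arrays below every control and DHT50 1 among the controls (change -0.96 ± 0.54, adjusted p = 0.685, limma). The other names of the germ cell list went the other way. The change was 0.54 ± 0.50 for Sperm-associated antigen 8 and 0.41 ± 0.52 for spermatid perinuclear RNA-binding protein. Motile sperm domain containing protein 1, which makes up most of the germ cell sums below, had a change of 0.16 ± 0.36. Whether this name marks germ cells was not tested, so these sums need not follow the germ cells. As summed linear signal relative to the array's 75th percentile, the 4 germ cell names ranged from 9.16 to 21.7 on DHT50 arrays and from 12.6 to 17.7 on control arrays, and 4 testis somatic names from 0.575 to 1.80 and from 0.843 to 1.37. Of each of these lists 2 names were well above background on all arrays.

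The sum of 28 liver and plasma names ranged from 12.3 to 54.7 on DHT50 arrays and from 13.7 to 794 on control arrays, highest in control 1, and 18 of the names were well above background on all 8 arrays and 1 on none. Without control 1, 42 of 52 members were below 0, against 33 of 52 with it, and all tested names went from 49.9% to 56.1%. Leaving out DHT50 2 instead gave 43 of 52 members and 54.5% of names. The sum of 9 red blood cell names ranged from 80.9 to 143 on DHT50 arrays and from 103 to 141 on control arrays, with 6 names well above background everywhere. The median deviation of the red blood cell names from their own means was -0.73, 0.88, 0.47 and 0.38 on DHT50 1 to 4 and -1.02, -0.20, 0.06 and -0.03 on control 1 to 4, so that DHT50 2 to 4 were above every control. Like those of the dimmer members, these medians were lowest on the brightest arrays (DHT50 1 and control 1) and highest on the dimmest (DHT50 2). Only 1 red blood cell name had groups that did not overlap, against 1.21% of all tested names higher. It was Hemoglobin alpha-D chain, at -1.26 ± 0.47 in DHT50 and -2.76 ± 0.47 in control (SD, n = 4 each, adjusted p = 0.685, limma). The brightest name, Hemoglobin alpha chain, had a change of -0.11 ± 0.31 and Hemoglobin alpha-A chain one of -0.49 ± 0.59. They were the only tested names of the list below 0.

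DHT50 1, the array that stood aside for many members, had the highest sums of 2 lists. The 16 muscle names, 9 of them well above background on all arrays, ranged from 8.96 to 24.7 on DHT50 arrays and from 12.1 to 21.5 on control arrays. Their median deviation on DHT50 1 was nevertheless -0.74, with only control 1 lower (-0.91), so the typical muscle name was low there despite the high sum. The 13 leukocyte names, 9 of them well above background on all arrays, ranged from 3.31 to 22.6 on DHT50 arrays and from 4.06 to 17.5 on control arrays, with a median deviation of 1.08 on DHT50 1. The 4 testis somatic names were split. The follicle stimulating hormone receptor (-4.20) and Steroidogenic acute regulatory protein (-5.39) were lowest on DHT50 1, the latter well above background on only 2 DHT50 arrays. Cytochrome P450 17A1 (-2.62) and inhibin alpha (-1.58) were not lowest there. The changes were -1.02 ± 0.77 and -0.63 ± 0.57 for the first pair, and 0.79 ± 0.62 and 0.89 ± 0.42 for the second. In every list but liver and plasma each name was well above background on at least 1 array. The part of these cells in the ribosomal protein values was not tested.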

How the data were processed

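Testis RNA of 8 males was hybridised to custom mummichog arrays. The deposited intensity is the green processed signal, background-subtracted by Agilent's Feature Extraction 10.7.1.1, per the file headers. A deposited log2 table served as an alternative. All its arrays hold the same sorted values (median 7.47), and its correlation over spots with the scanner values ran from 0.995 to 1.00, which settles scale and direction. The sources used here do not name its tool.

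The value analysed was log2 signal minus the 75th percentile of all non-control spots on that array, with both spots of a probe averaged and 28 of 114512 readings with an outlier flag left out. No spot was saturated (0). Deposited flags set detection: 5989 probes were well above background, on both spots, on at least 4 of 8 arrays and were tested with limma 3.58.1 in R 4.3.3 (lmFit, eBayes, two-sided, Benjamini-Hochberg over these probes). The fit was also run on simulated arrays with independent noise and planted changes larger than any member's change. That run does not show whether changes of the members' size could be detected. The number of arrays limits the precision.

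Product names are those of the array design, often from other species, and 2572 probes have none. Of the members, 49 match a symbol of the same number among 34686 genes of the RefSeq annotation of MU-UCD_Fhet_4.1, and no coordinates are given because the design names no genome build. The members, roles, gene lists and the rule for named genes (8 smallest unadjusted p in each direction, groups that do not overlap, P0 to P2, and members by role) were chosen with earlier results of these data known. Alternatives were normexp with an offset of 50, quantile and median scaling, the deposited table, other filters, trend and robust moderation, array weights, the replicate number or slide row as a block, each row alone, brightness as a covariate, each array left out and the average over probes of 1 name. The split by level and the joint removal of control 1 and DHT50 1 were added after seeing the data.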

Additional observations from a re-analysis of the deposited data

Results flagged for a closer look

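In 104 groups of 4 arrays, both groups of each of the 52 tested members, 7 held 1 array that stood apart from the other 3 by Dixon's test at the 95% level, where chance flags about 1 in 20. In 5 of the 7 that array was control 1. L8 was at 6.79, L13 at 4.01, L17 at 5.93 and L23a at -2.30 there, each below the other controls, and L4 was at 1.87, above them. L24 was at 1.61 in control 2, below the other controls. L22 was at 4.51 in DHT50 2, above the other DHT50 arrays.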

How the results depend on the processing

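In every alternative run except slide row 1 alone, limma called 0 probes. In row 1 alone, where control 1 is the lone control, it called 106 of the 5989 tested probes. The chosen probes of the 52 members gave 0 of these calls, and the other member probes were not counted. At so small a share of probes called, 0 of 52 does not set the members apart. Control 1 had the highest liver and plasma sum (794), and its part in these calls was not tested. Unadjusted p under 0.05 was reached by 282 probes, and by 81 with normexp, 1279 with array weights, 426 in row 1 alone, 1389 without DHT50 1, 155 when control 1 was left out, 168 for control 2, 137 for DHT50 3 and 1065 without control 1 and DHT50 1. With the replicate block it was 597, the median change of members was -0.28, 33 members were lower and 0 probes were called. Same-numbered arrays deviated from their group means with r = 0.202, 0.163, 0.382 and -0.114. DHT50 1 to 3 each correlated best with the control of their own number, and DHT50 4 did not. Since this did not hold for every array and no label states a pairing, the numbers were not taken as pairs. The median change of members, -0.28, was 0.24 in members of level under 2, 0.016 in row 1 alone and -0.12 with the row as a block. The median over all tested names moved too, from 0.0013 to 0.21 in row 1 alone and to 0.096 with the row as a block. With 1 array left out the median change of members ran from -0.39 to -0.22, and 32 to 43 members were lower. In the 22 other fits 27 members kept their sign, 25 of them lower, and the 2 higher ones were L12 and L4.

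The other 25 members had the opposite sign in at least 1 of those fits, 14 of them with changes given here and 11 others whose changes are not. For members whose changes are given, the signs that turned were these, and the cause was not tested. In row 1 alone P1 was at 0.049, L17 at 0.038, L3 at 0.20, L39 at 0.11 and L8 at 0.099. With the row as a block L3 was at 0.064. In row 2 alone P2 was at -0.28, L10 at -0.028 and L36a at -0.44. With brightness as a covariate P2 was at -0.31, L10 at -0.21, L10a at -0.35, L23 at -0.10, L23a at -0.27, L26 at -0.10, L36 at -0.21 and L36a-like at -0.055. With array weights P2 was at -0.23 and L10a at -0.15. With the deposited table P2 was at -0.084. Averaged over all probes of a name, which is not among the 22 fits, P2 was at -0.14, L10 at -0.017 and L41 at 0.21. L41 kept its sign in all 22 fits and is not one of the 25. Leaving out 1 array put P2 between -0.20 and 0.13, L10 between -0.029 and 0.31 and L10a between -0.093 and 0.50, and without control 1 and DHT50 1 P2 was at -0.044. Signal over background limits L30 and the names L11 and L21 without prefix, which were well above background on at most 5 of 8 arrays.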
